A study of Mus musculus with 3 samples.

Results

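Tubulins are the building blocks of microtubules, the hollow filaments that cells use to transport cargo, keep their shape, migrate and divide. The 9 genes described here encode alpha and beta tubulin chains, and they are 9 of the 32285 genes in the deposited matrices. They are the beta chains Tubb2a, Tubb2b, Tubb3, Tubb4b, Tubb5 and Tubb6 and the alpha chains Tuba1a, Tuba1b and Tuba1c. The genes were listed by symbol around Tubb2b, which was chosen by its rise in these data 30 h after injection of melanoma cells, so that rise is given as a description. The other members were listed as its relatives.

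The study asked how lung endothelial cells (ECs) respond to arriving tumor cells. Lung ECs of C57BL/6 mice of WT genotype were sorted as Pecam1+ Ptprc- cells after enzymatic digestion, and their RNA was read at the 3′ end, cell by cell, with a droplet kit. There were 3 libraries, 1 for each group. The control mice received PBS into the tail vein and were taken at 6 h. The other mice received 200000 B16-F10 cells, a pigmented mouse melanoma line, in 100 µl of PBS and were taken at 6 h or at 30 h. The labels give 2 mice per treatment, the study's methods a larger number for the experiment with a 30 h sample, and the animals of a library were pooled. They were young adult males per the study's methods. Melanoma cells labeled with a tracker dye were added to the 6 h library per its label. No PBS library of 30 h was analysed here, so time and treatment cannot be told apart in the 30 h library. Since each group is a single library, differences cannot be set against a spread between replicates, and every interval is a 95% interval for counting error only.

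The total count was 124085451 to 140601123 UMIs (molecule tags) per library. ECs were barcodes with 1000 to 5000 detected genes, under 20% mitochondrial UMIs and at least 2 UMIs of Pecam1 and Cdh5 in sum, and they numbered 11231 in control, 10583 at 6 h and 9278 at 30 h, with median depths of 7782, 8033 and 8676 UMIs. Defining EC markers were high in all libraries (Pecam1 1097 to 1237 CPM, Cdh5 1583 to 1788 CPM), and Ptprc, the sort's negative marker, was at 3.16, 4.95 and 6.53 CPM. CPM is the UMIs of a gene per 1000000 UMIs of the same sum. Any pair of libraries shared at most 39 barcodes. Gene models that can pick up ribosomal RNA stood apart in the 30 h library, where they summed to 21330 CPM against 5056 CPM in control and 6309 CPM at 6 h, and the free RNA share was estimated at 5.45%, 7.45% and 7.05% in control, 6 h and 30 h. With these models and mitochondrial genes left out of the scaling, the 30 h log2 ratio of Tubb2b to control was 1.78, beside 1.75 with them. ECs with RNA of another cell type (2 or more UMIs of a marker list) were 16.1%, 20.4% and 21.7%, and the immune markers summed to 17.4, 28.9 and 28.1 CPM. Without those ECs the 30 h log2 ratio was 1.77 for Tubb2b, 1.06 for Tuba1a and 0.95 for Tubb2a.

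Alpha and beta tubulin pair into dimers, and the dimers add to microtubule ends. Vertebrates carry several genes for each chain, and the encoded isotypes tend to differ most at the acidic carboxy-terminal tail, which lies on the outside of the microtubule and carries modifications such as polyglutamylation. Tubb5 and Tubb4b are the broadly expressed beta chains. Tubb2a, Tubb2b, Tubb3 and Tuba1a are known best from neurons, Tubb2b and Tuba1a from migrating young neurons in particular, and Tubb6 is known from its induction in injured muscle.

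Positions are 1-based on mm10 from GENCODE M21. Tubb2a (chr13:34074274-34078007) and Tubb2b (chr13:34126748-34130466) both lie on the minus strand, with 48740 bases between them. Tuba1b (chr15:98931425-98934565), Tuba1a (chr15:98949837-98953703) and Tuba1c (chr15:99029891-99038110) form a cluster on chromosome 15. Tubb3 lies at chr8:123411424-123422015, Tubb4b at chr2:25222160-25224702 and Tubb5 at chr17:35833921-35838306. All 9 first-listed transcripts have 4 exons.

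Some members are close copies, which bears on their counts. The coding sequences of Tubb2a and Tubb2b differ at 47 of 1335 bases, and the encoded chains at 2 of 445 residues. Their last 60 coding bases (20 codons before the stop codon) are shown as an example of how close the pair is, and capitals mark bases that are not identical (Tubb2b chr13:34127474-34127533, Tubb2a chr13:34074471-34074530, both minus strand, last exon).
Tubb2b: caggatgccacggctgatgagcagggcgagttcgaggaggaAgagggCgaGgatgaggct
Tubb2a: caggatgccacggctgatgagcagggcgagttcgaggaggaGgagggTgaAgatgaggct
All 20 of these codons encode the same residue in both genes, so the 2 residues that differ lie elsewhere in the chain.

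The alpha genes are as close. Tuba1a and Tuba1b differ at 23 of 1353 coding bases and 2 of 451 residues, and Tuba1c has 8 residues that are not identical with Tuba1a.

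A read that lies wholly in a stretch shared with another counted gene cannot be assigned. The labels give 91 bases for the transcript read, the study's methods a slightly shorter length, and windows of 91 bases were compared. In the last 500 bases of the transcript, where 3′ libraries collect most reads, no 91-base window of Tubb2b, Tubb3, Tubb5 or Tubb6 occurred in a transcript of another gene. The share was 25.1% for Tubb2a (with Tubb2b) and 12.2% for Tubb4b (with 2 pseudogenes only). It was 52% for Tuba1a, 60% for Tuba1b and 64.9% for Tuba1c, each with the other alpha members and pseudogenes. The matrices hold 0 of the 13 pseudogenes that share a window with a member, and how the authors' counting treated such reads is not given in the sources used here. Reads from the end of Tubb2b can thus be assigned to it, while the counts of the alpha members are uncertain.

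The promoters of 7 of the 9 members were in the RefSeq table (GRCm38.p6, 250 bases before to 50 after the start). Those of Tubb2a (chr13:34077959-34078258, minus strand) and Tuba1a (chr15:98953452-98953751, minus strand), which were highest at 30 h, and of Tuba1c (chr15:99029641-99029940, plus strand), which peaked at 6 h, are shown. Capitals mark the TATA box letters (written as TATAAA), the letters CCAAT, or the GC box letters (written as GGGCGG), on either strand.
Tubb2a: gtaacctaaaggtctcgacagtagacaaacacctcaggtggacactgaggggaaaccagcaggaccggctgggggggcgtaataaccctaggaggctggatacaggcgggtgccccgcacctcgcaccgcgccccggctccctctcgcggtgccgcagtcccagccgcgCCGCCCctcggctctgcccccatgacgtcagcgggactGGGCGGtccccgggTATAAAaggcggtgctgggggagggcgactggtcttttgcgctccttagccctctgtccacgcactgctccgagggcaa
Tuba1a: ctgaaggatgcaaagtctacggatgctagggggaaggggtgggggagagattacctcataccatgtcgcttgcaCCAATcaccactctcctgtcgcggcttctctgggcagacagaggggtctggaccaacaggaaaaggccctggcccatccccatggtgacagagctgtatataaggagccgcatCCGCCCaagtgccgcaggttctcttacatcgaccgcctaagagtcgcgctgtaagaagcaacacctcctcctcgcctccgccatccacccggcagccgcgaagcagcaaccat
Tuba1c: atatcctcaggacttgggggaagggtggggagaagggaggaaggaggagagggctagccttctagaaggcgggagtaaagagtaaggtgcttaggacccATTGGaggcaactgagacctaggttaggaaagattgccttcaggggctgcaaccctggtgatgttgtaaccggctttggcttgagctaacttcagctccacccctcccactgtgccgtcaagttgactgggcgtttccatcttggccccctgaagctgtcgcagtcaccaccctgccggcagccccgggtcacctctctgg

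Of all 27025 promoters of this length, 14.2% held the TATA letters, 37.9% the CCAAT letters and 35.9% the GC box letters. Tubb2a held 1 TATA and 2 GC boxes, Tuba1a 1 CCAAT and 1 GC box, and Tuba1c 1 CCAAT box. None of the 7 promoters held the AP-1 letters TGACTCA, which were in 5.17% of all promoters. None held the STAT letters TTCNNNGAA (8.47%) or the heat shock element letters GAANNTTC (7.95%). These are matches of letters in a short window and not sites.

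Of the 9 members, 8 averaged 5 CPM or more across libraries, and their levels followed different time courses. Tubb2b, Tubb2a, Tubb5, Tuba1a and Tuba1b were higher at 6 h than in control and higher again at 30 h. Tubb6 and Tuba1c were several-fold higher at 6 h and close to control at 30 h, and Tubb4b was slightly higher at 6 h. Tubb6 and Tuba1c reached this average only through the 6 h library, so their place among the counted members depends on that library.

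**Figure D1:**
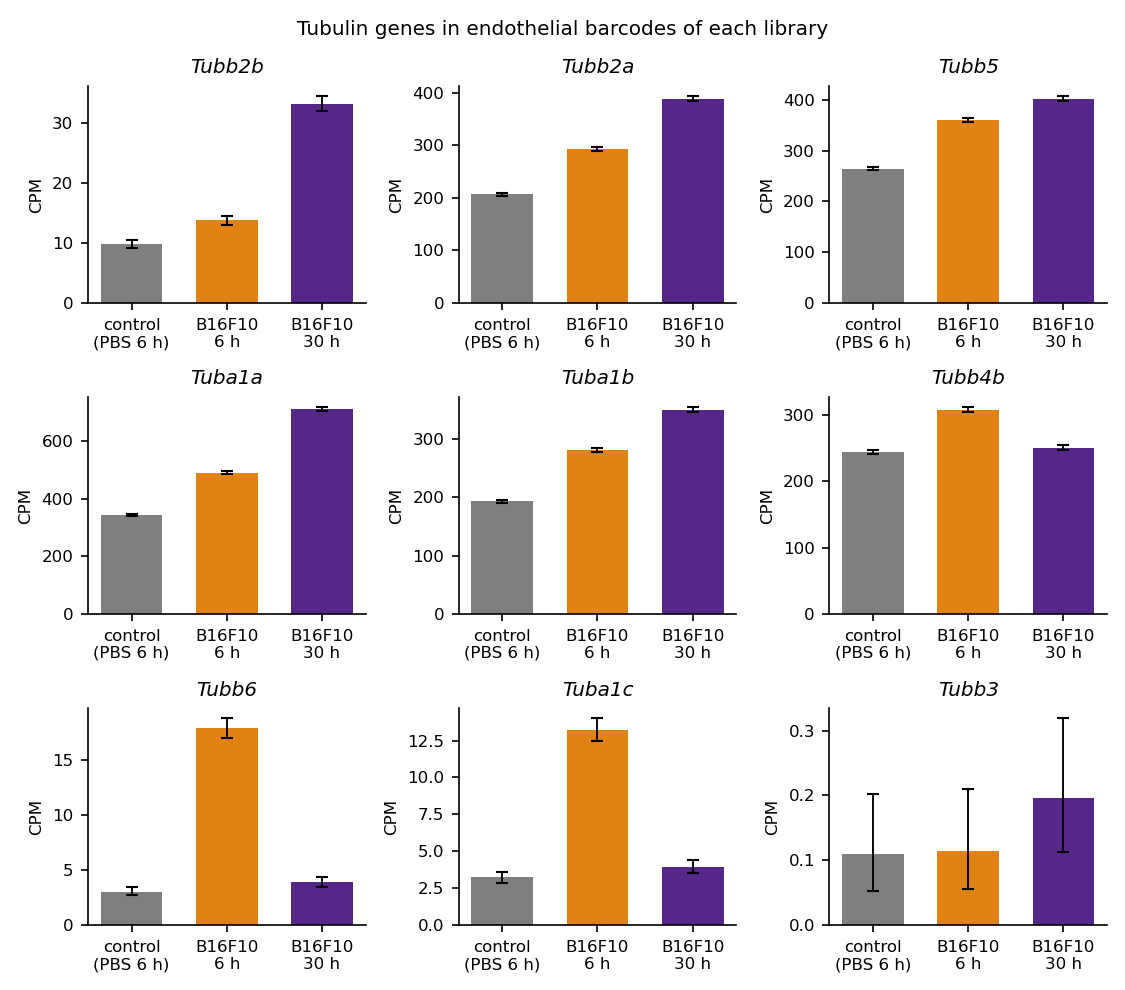
Level of each tubulin gene in CPM (y axis, from 0, own scale per panel) in ECs of the control, 6 h and 30 h libraries, 1 library per bar, with 95% Poisson intervals. Tubb2b, Tubb2a, Tubb5, Tuba1a and Tuba1b step up to 30 h, Tubb6 (17.8 CPM) and Tuba1c (13.2 CPM) peak at 6 h, and Tubb3 stays under 1 CPM.

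Tubb2b was at 9.85 CPM in control (895 UMIs, interval 9.22 to 10.5), 13.8 CPM at 6 h (1201 UMIs, 13.0 to 14.6) and 33.1 CPM at 30 h (2699 UMIs, 31.9 to 34.4). The 30 h level, by which the gene was chosen, was thus 3.36-fold that of control (3.12 to 3.63) and 2.41-fold that of 6 h (2.25 to 2.58). The 6 h level was 1.40-fold that of control (1.28 to 1.52). Among 10175 genes ranked by their log2 ratio of (CPM + 1), Tubb2b was at place 17 at 30 h against control.

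Its neighbour Tubb2a was at 207 CPM in control, 293 CPM at 6 h and 389 CPM at 30 h. The log2 ratio to control was 0.50 (0.47 to 0.53) at 6 h and 0.91 (0.88 to 0.94) at 30 h. Tubb5, the broadly expressed beta chain, was at 264, 361 and 402 CPM in the same order, with log2 ratios of 0.45 and 0.61. Most of its step was thus already present at 6 h, since 30 h was 0.16 above 6 h on the log2 scale (0.13 to 0.18).

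Tuba1a was at 344 CPM in control, 491 CPM at 6 h and 712 CPM at 30 h, a log2 ratio to control of 0.52 (0.49 to 0.54) and then 1.05 (1.03 to 1.07). Tuba1b was at 193, 281 and 351 CPM, with log2 ratios of 0.54 and 0.86. Counting intervals of Tuba1a and Tuba1b did not overlap between libraries, and the share of all genes for which this holds was not computed. At 17553 or more UMIs per library, small differences suffice to separate such intervals. Reads shared between the alpha chains may be lost or misplaced in all 3 libraries alike, and the size of that loss was not tested.

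Tubb4b, the other broadly expressed beta chain, went from 244 CPM in control to 308 CPM (6 h) and 251 CPM (30 h). Against control its log2 ratio was 0.33 (0.31 to 0.36) at 6 h and 0.035 (0.0080 to 0.063) at 30 h. Tubb6 (chromosome 18) was at 3.04 CPM (276 UMIs), 17.8 CPM (1558 UMIs) and 3.90 CPM (318 UMIs), which is 5.87-fold control at 6 h (5.16 to 6.70) and 1.29-fold at 30 h (1.09 to 1.52). In empty droplets (barcodes of 10 to 100 UMIs) Tubb6 was at 3.42 CPM (3 UMIs), 31.7 CPM (22 UMIs) and 7.58 CPM (20 UMIs), so its 6 h level there was above that in ECs. Tuba1c was at 3.23 CPM (293 UMIs), 13.2 CPM (1155 UMIs) and 3.96 CPM (323 UMIs), which is 4.10-fold control at 6 h (3.6 to 4.68) and 1.23-fold at 30 h (1.05 to 1.45). Its 6 h log2 ratio of 2.04 was 1.39 when barcodes of at least 300 genes, with no upper limit, were used. Tubb3, the neuronal beta chain, had only 10, 10 and 16 UMIs in the 3 libraries, and no difference was detectable at this depth.

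**Figure D2:**
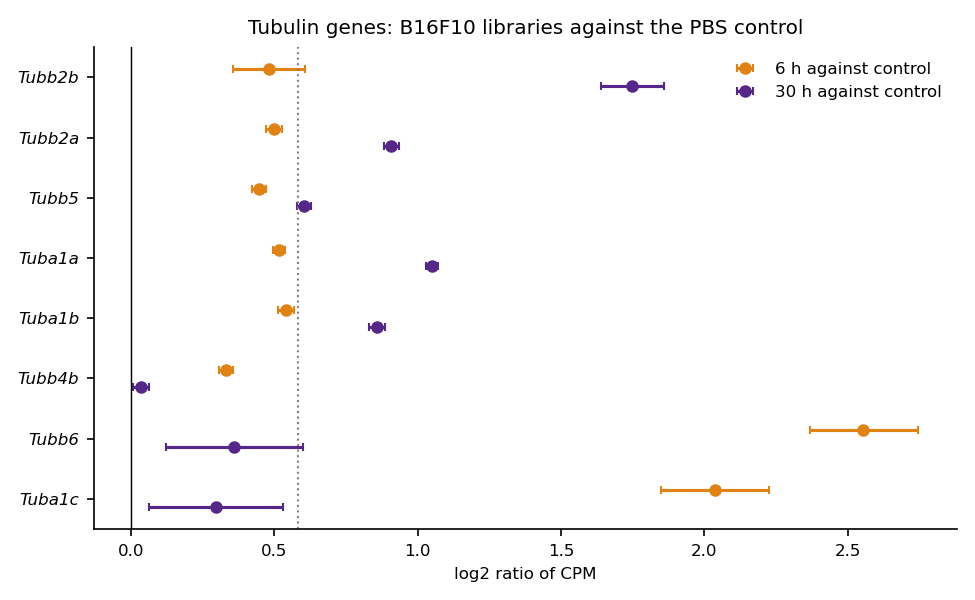
Log2 ratio of CPM (x axis) of the 6 h library (orange) and the 30 h library (purple) against the same control library for the 8 members that averaged 5 CPM or more, with 95% counting intervals; the dotted line marks 1.5-fold. Tubb2b (1.75) and Tuba1a (1.05) are highest at 30 h, whereas Tubb6 (2.55) and Tuba1c (2.04) are highest at 6 h.

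On the log2(CPM + 1) scale, which understates changes of low genes, 2 of 8 members were higher by at least 1.5-fold at 6 h (Tubb6 and Tuba1c) and 0 were lower, while 1.8% of all 10175 genes were higher and 1.14% lower. At 30 h 5 of 8 were higher than control (Tubb2b, Tuba1a, Tubb2a, Tuba1b and Tubb5) and 0 lower, against 4.24% and 4.39% of all genes, and the choice of Tubb2b used this contrast. At 30 h against 6 h, 1 was higher (Tubb2b) and 2 lower (Tubb6 and Tuba1c), against 4.69% and 4.61% of all genes. The median log2 ratio of the 8 members was 0.51, 0.73 and 0.24 in these comparisons, beside -0.014, -0.071 and -0.070 over all genes. The comparisons share libraries, and no test was made. Tubb6 and Tuba1c are the 2 higher at 6 h and the 2 lower at 30 h against 6 h. Both passed the 5 CPM limit only through their 6 h level, so those counts follow in part from the limit.

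Summed UMIs show how these changes added up. The beta members summed to 729 CPM in control, 993 CPM at 6 h and 1079 CPM at 30 h, and the alpha members to 540, 786 and 1067 CPM. At 6 h both sums were higher by similar folds (1.36 for beta and 1.46 for alpha), and at 30 h the alpha sum was 1.98-fold and the beta sum 1.48-fold control. All 9 members together held 1269, 1779 and 2145 CPM.

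The make-up of the beta pool also shifted. Tubb2b held 1.35% of beta UMIs in control (interval 1.27% to 1.44%), 1.38% at 6 h (interval 1.31% to 1.46%) and 3.07% at 30 h (interval 2.96% to 3.19%). At 6 h its fold over control (1.40, interval 1.28 to 1.52) was not distinguishable from that of the beta members without it (1.36). Tubb2a went from 28.4% to 29.5% and 36.1%, and Tubb4b from 33.5% to 31.0% and 23.2%. Tubb6 held 0.417%, 1.80% and 0.362%. In the alpha pool Tuba1a held 63.6%, 62.5% and 66.8%.

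The members differed in how their UMIs were spread over cells. After each barcode was thinned to 2000 UMIs, Tubb2b was seen in 1.98% of control barcodes (219 of 11036, interval 1.73% to 2.26%), 2.58% at 6 h (268 of 10386, 2.28% to 2.90%) and 5.92% at 30 h (543 of 9167, 5.45% to 6.43%). Without thinning the shares were 6.24%, 8.96% and 19.1%. Barcodes under 2000 UMIs, left out by thinning, were 195 in control, 197 at 6 h and 111 at 30 h. In unthinned barcodes with Tubb2b, the mean was 1.28 UMIs in control, 1.27 at 6 h and 1.53 at 30 h, and 0.338%, 0.425% and 2.23% of all ECs had 3 or more. Depth is not matched in these last values.

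Tuba1a was seen in 42.5%, 54.2% and 68.5% of thinned barcodes and Tubb5 in 39.2%, 48.6% and 52.3%. Tubb2a was seen in 30.7%, 39.6% and 48.7% and Tubb4b in 35.3%, 41.9% and 37.5%. Tubb2b and Tubb2a were found in the same thinned barcode in 0.988% of control barcodes, 1.44% at 6 h and 3.84% at 30 h, beside 0.610%, 1.02% and 2.89% from the product of their shares. No cell type that lacks tubulin was at hand, so the level in empty droplets is given as background. Tubb2b was there at 13.7 CPM (12 UMIs), 13.0 CPM (9 UMIs) and 24.7 CPM (65 UMIs), below its EC level at 30 h and not distinguishable from it in control and at 6 h.

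ECs were put into classes by marker gates whose limits were set with these data in view. General capillary (gCap-like) barcodes numbered 7182, 7097 and 5309 in control, 6 h and 30 h, aerocyte (aCap-like, the thin cells of gas exchange) 1526, 1244 and 1523, vein-like 919, 658 and 728, artery-like 365, 317 and 513 and lymphatic (LEC-like) 74, 55 and 55. The gCap-like barcodes were split by 3 or more UMIs of Ntrk2 and Slc6a6 in sum into 805, 697 and 1098 Ntrk2/Slc6a6-positive barcodes and the rest. This is a limit on a range and not a cell type, since 296, 244 and 294 of the positive barcodes had exactly 3 such UMIs and 482, 443 and 502 others had 2. Both genes were higher at 30 h (Ntrk2 20.6, 18.3 and 41.5 CPM), so barcodes can cross this limit between libraries. Tubb2b in this split is therefore compared within a library only, apart from the class weighting given below.

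Among the named classes Tubb2b was highest in the capillary barcodes with Ntrk2 and Slc6a6. In Ntrk2/Slc6a6-positive gCap-like barcodes it was at 33.5 CPM in control (246 UMIs), 30.5 CPM at 6 h (198 UMIs) and 61.3 CPM at 30 h (642 UMIs). In the other gCap-like barcodes it was at 9.04 CPM (439 UMIs), 14.8 CPM (770 UMIs) and 37.3 CPM (1298 UMIs). The positive barcodes were thus above the others in each library, with a log2 ratio of 1.89 in control (interval 1.66 to 2.12), of 1.05 at 6 h (interval 0.81 to 1.27) and of 0.72 at 30 h (interval 0.58 to 0.86).

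In artery-like barcodes Tubb2b was at 9.51 CPM (37 UMIs), 15.1 CPM (53 UMIs) and 47.3 CPM (264 UMIs). Under a stricter gate, which left 92, 72 and 196 artery-like barcodes, it was at 5.69 CPM (6 UMIs), 4.82 CPM (4 UMIs) and 35.3 CPM (77 UMIs). The 6 h level was then below control in value, within counting error, and the 30 h level above it (log2 ratio 2.64, interval 1.45 to 4.13). In vein-like barcodes it was at 5.35, 7.41 and 12.3 CPM, and in aCap-like barcodes at 3.57, 4.01 and 11.7 CPM. LEC-like barcodes had 1, 0 and 4 UMIs, and the 0 at 6 h allows a level of up to 6.78 CPM. In control the order from Ntrk2/Slc6a6-positive gCap-like to aCap-like was clear at its ends. Artery-like barcodes had intervals that overlapped those of other gCap-like and of vein-like barcodes, and vein-like and aCap-like intervals overlapped too.

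At 30 h Tubb2b was above control in each of 4 classes, LEC-like barcodes having too few UMIs. The gene was chosen by this rise in the same ECs, so the 30 h class values are descriptions. The share of all genes that were higher in each class was not computed. The log2 ratio was 1.81 (1.68 to 1.93) in all gCap-like, 2.32 (1.82 to 2.85) in artery-like, 1.71 (1.28 to 2.16) in aCap-like and 1.20 (0.69 to 1.72) in vein-like barcodes. At 6 h it was 0.43 (0.29 to 0.58) in gCap-like and 0.67 (0.037 to 1.32) in artery-like barcodes. The 6 h intervals of vein-like (0.47, -0.13 to 1.07) and aCap-like barcodes (0.17, -0.40 to 0.73) included 0. Whether the classes differ in their change was not tested across mice. Weighting the classes to their control shares left the 30 h log2 ratio of all ECs at 1.72, beside 1.75 unweighted. This weighting kept the 2 gCap-like parts of the Ntrk2/Slc6a6 split as separate classes. Barcodes that cross that limit between libraries therefore affect the weighted value.

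**Figure D3:**
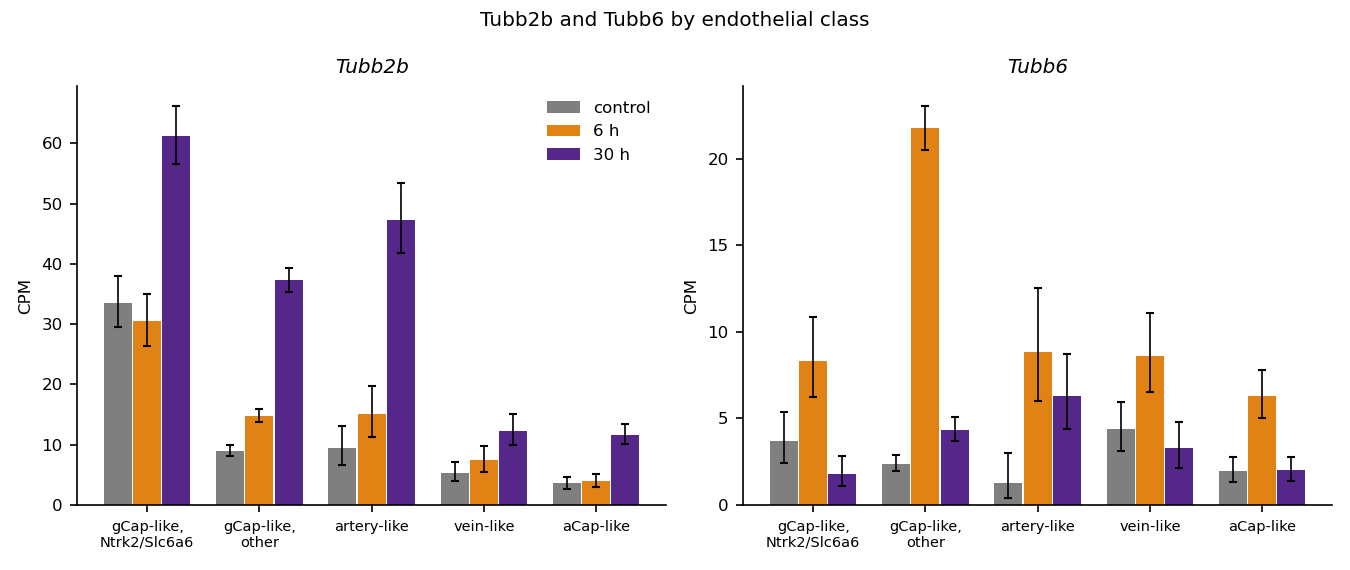
Level in CPM (y axes, from 0) of Tubb2b (left) and Tubb6 (right) in 5 marker-gated EC classes of the control (grey), 6 h (orange) and 30 h (purple) libraries, with 95% Poisson intervals. Tubb2b is highest in Ntrk2/Slc6a6-positive gCap-like barcodes and at 30 h, and among the classes shown Tubb6 is highest in other gCap-like barcodes at 6 h (21.8 CPM). LEC-like barcodes, where Tubb6 was higher (94.95 CPM at 6 h), are not shown.

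The other members had their own class patterns. Tuba1a was highest in aCap-like barcodes (656, 889 and 1008 CPM, beside 279, 424 and 660 CPM in gCap-like). Its 30 h log2 ratio was 0.62 in aCap-like, 1.25 in gCap-like and 1.55 in artery-like barcodes. Tubb2a, like Tubb2b, was higher in Ntrk2/Slc6a6-positive than in other gCap-like barcodes (359 against 194 CPM in control). In aCap-like barcodes Tubb2a was at 218, 344 and 280 CPM, so its highest level there was at 6 h.

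Tubb4b went different ways at 30 h. In aCap-like barcodes it was at 350, 443 and 270 CPM, a log2 ratio of -0.37 (-0.43 to -0.32) at 30 h. In artery-like barcodes it was at 202, 289 and 266 CPM, a log2 ratio of 0.40 (0.27 to 0.53). Tubb5 and Tuba1b were above control at both times in gCap-like, aCap-like, artery-like and vein-like barcodes.

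Tubb6 was highest in LEC-like barcodes, at 40.0 CPM in control (25 UMIs), 94.95 CPM at 6 h (42 UMIs) and 51.5 CPM at 30 h (28 UMIs). In other gCap-like barcodes it went from 2.39 CPM to 21.8 CPM at 6 h and 4.36 CPM at 30 h. The stricter gate raised every limit, so barcodes that failed another limit could join this class. It grew from 6377, 6400 and 4211 to 6878, 6713 and 4750 barcodes and is thus not a purer set. Tubb6 was then at 2.54, 15.1 and 4.43 CPM, with a 6 h log2 ratio of 2.57 in place of 3.19. In Ntrk2/Slc6a6-positive gCap-like barcodes it was at 3.68, 8.32 and 1.81 CPM. Under the stricter gate these were 3.27, 3.28 and 1.77 CPM (17, 15 and 16 UMIs), with no difference from control beyond counting error. Barcodes that passed no gate, with a median of 2638 to 2797 UMIs, had 5.13, 40.2 and 5.30 CPM. Tuba1c was at 2.53, 14.9 and 4.02 CPM in other gCap-like and at 10.3, 46.6 and 7.53 CPM in ungated barcodes. In vein-like barcodes, where Tuba1c was highest of the named classes in control, it was at 8.35, 14.1 and 9.80 CPM.

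Much of the Tubb6 and Tuba1c RNA at 6 h lay in few cells. The 1% of ECs with most Tubb6 held 55.3% of its UMIs at 6 h, beside 60.9% in control and 51.3% at 30 h. For Tuba1c the share was 55.9%, beside 58.0% and 55.7%. In control and at 30 h UMIs were so few that this share is high however they are spread. It therefore cannot compare the libraries. Barcodes with 3 or more Tubb6 UMIs were 11 of 11231 in control, 153 of 10583 at 6 h and 14 of 9278 at 30 h. They held 17.0%, 65.2% and 19.2% of the Tubb6 UMIs of their library. For Tuba1c the numbers were 13, 119 and 15, which held 15.0%, 59.6% and 23.8%. These shares also depend on the level of the gene. At 6 h 0.607% of thinned barcodes had both genes (63 of 10386, interval 0.466% to 0.775%), beside 0.0419% from the product of their shares. For Tubb2b and Tubb6 the share was 0.0963% (10 barcodes, 0.0462% to 0.177%) beside 0.0591%.

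The genes with the highest ratio in the 153 Tubb6 barcodes against the other 6 h ECs were Csf2 (359 against 2.81 CPM), Fosl1 (261 against 4.20 CPM), Tuba1c (343 against 6.99 CPM) and Myc (264 against 5.48 CPM). Csf2 encodes the growth factor GM-CSF, and Fosl1 and Myc are transcription factors of early growth responses. Noct, Pdgfa, Mt2, Hbegf, Col18a1 and Prag1 followed, of which Pdgfa and Hbegf encode growth factors. The remaining tubulins did not share this: Tubb2a was at 242 against 294 CPM, Tuba1a at 413 against 493 CPM and Tubb2b at 19.1 against 13.7 CPM. The barcodes were chosen by Tubb6, so these are descriptions. Only genes of 5 CPM or more at 6 h were ranked, and Csf2 and Fosl1 passed that limit only through these barcodes.

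Barcodes with 3 or more UMIs of Csf2, Fosl1 and Myc in sum numbered 14 in control, 210 at 6 h and 7 at 30 h. These genes were picked from the Tubb6 barcodes of 6 h, so a high Tubb6 level and share at 6 h follow in part from that choice. Of the 210, 39 had exactly 3 such UMIs, and 75 further 6 h barcodes had 2. The 210 barcodes were 1.98% of 6 h ECs and held 57.6% of Tubb6 UMIs and 55.3% of Tuba1c UMIs, but 3.58% of Tubb2b UMIs. Tubb6 in them was at 401 CPM (375 to 428), beside 106 CPM (62 to 170, 17 UMIs) in the 14 control barcodes. In ECs with fewer than 3 such UMIs Tubb6 was at 2.86 CPM in control, 7.77 CPM at 6 h and 3.87 CPM at 30 h, a log2 ratio of 1.44 (1.23 to 1.66) at 6 h. Tuba1c was there at 3.07, 6.06 and 3.90 CPM, a log2 ratio of 0.98 (0.77 to 1.20).

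**Figure D4:**
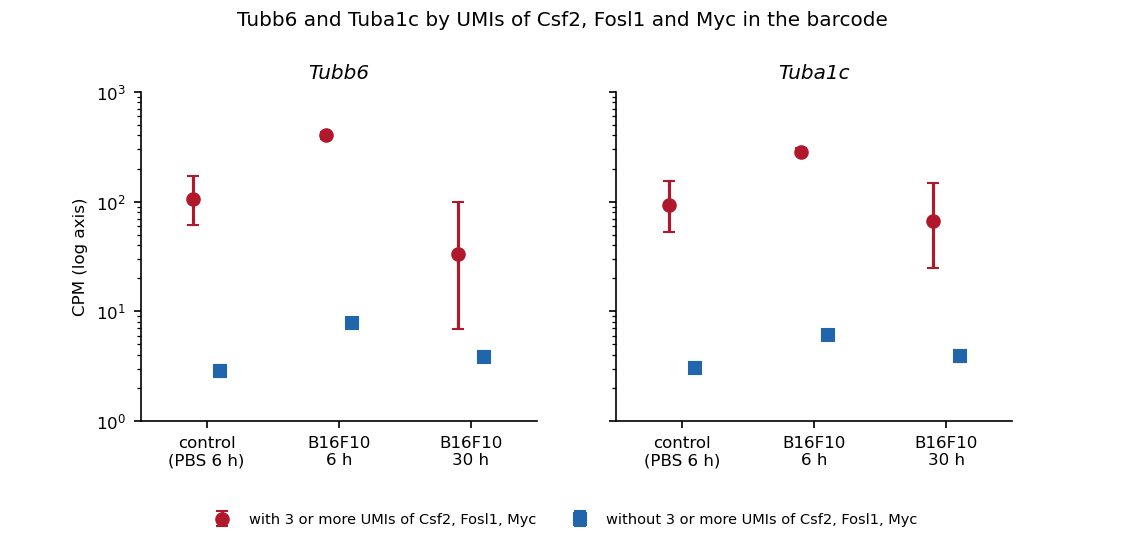
Level of Tubb6 (left) and Tuba1c (right) in CPM on a log axis, in ECs with 3 or more (circles) and with fewer than 3 (squares) UMIs of Csf2, Fosl1 and Myc in sum, by library, with 95% Poisson intervals that are smaller than some symbols. The barcodes with 3 or more (14, 210 and 7) lie above the others in each library, with 3 UMIs of Tubb6 behind the 30 h point.

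Most of the 210 barcodes were gCap-like (167, 79.5%), beside 66.8% of the other 6 h ECs. RNA of another cell type was in 37.1% of the 210, beside 20.04% of the other 6 h ECs, and 0 of the 210 had 4 or more melanoma marker genes. The 210 had a median depth of 10650 UMIs, beside 8000 in the others, so these shares are not matched for depth. Doublet scores marked 7.14% of them and 8.92% of the others. Without barcodes that carry RNA of another cell type, 132 remained, with Tubb6 at 419 CPM and Tuba1c at 290 CPM.

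In the summed UMIs of the 119 Tuba1c barcodes alveolar epithelial genes were also among the leading genes. Few barcodes can set such a sum, and how many of the 119 carried this RNA was not counted. Sftpc, the surfactant protein C gene, was at 10170 against 152 CPM, and Slc34a2, Sftpb, Sftpd and Sftpa1 were among the next genes. ECs with 2 or more UMIs of the epithelial markers were 55, 49 and 41. Tuba1c was at 18.8, 45.8 and 49.5 CPM in them (12, 24 and 21 UMIs), beside 3.12, 13.0 and 3.73 CPM in the rest. At 6 h they thus held 24 of the 1155 Tuba1c UMIs of the library. Tuba1c in ECs with 2 or more UMIs of immune markers was at 32.6, 33.3 and 17.5 CPM (38, 49 and 19 UMIs). ECs without them were at 2.84, 12.9 and 3.78 CPM. With platelet markers Tuba1c was at 8.39, 21.2 and 5.34 CPM (75, 237 and 57 UMIs), and without at 2.66, 12.1 and 3.76 CPM. Fibroblast-marked ECs in control, and melanoma-marked ECs in control and at 30 h, were below the other ECs in value. The summed level of the 5 epithelial markers over all ECs was 9.63, 8.14 and 6.00 CPM, with all 5 above 0. Without ECs that carry RNA of another cell type, the 6 h log2 ratio of Tuba1c was 2.12.

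The 207 barcodes with 3 or more Tubb2b UMIs at 30 h (38 in control, 45 at 6 h) were set against the other 30 h ECs. Only genes of 5 CPM or more at 30 h were ranked, which leaves out Csf2, Fosl1, Myc, Tubb6 and Tuba1c. The list therefore cannot be compared with that of the Tubb6 barcodes at 6 h. Gm35533, Mal, Slc26a10, Inhbb, Cdk19, Sema5a, Apba1, Prnp, Atp13a3 and Col15a1 had the highest ratios, with Mal at 29.1 against 4.49 CPM and Inhbb, an activin subunit, at 25.6 against 6.77 CPM. Tubb2a was at 785 against 378 CPM and Tuba1a at 980 against 705 CPM in them. Of the 207, 156 were gCap-like.

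Melanoma cells carry tubulins too. At 6 h, 45 barcodes had 4 or more melanoma marker genes, and 7 of them were in the EC set. In the 31 without EC markers Tuba1b was at 502 CPM, Tubb5 at 471 CPM, Tuba1c at 74.8 CPM (17 UMIs) and Tubb6 at 39.6 CPM (9 UMIs), while Tubb2b had 1 UMI. The melanoma markers summed to 4.82, 19.4 and 6.25 CPM over all ECs (7, 8 and 7 of 8 markers with UMIs), with Dct at 0.066, 5.48 and 0.037 CPM. Cycling markers summed to 10.4, 7.45 and 5.89 CPM and were thus lowest at 30 h. Markers of platelets, whose own beta chain is Tubb1, summed to 142, 173 and 143 CPM.

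Of the wider tubulin system 88 genes averaged 5 CPM or more. For these lists, folds and log2 ratios are on the log2(CPM + 1) scale, which understates changes of low genes. At 6 h 0 of the 88 was past 1.5-fold against control, where 1.8% of all genes were higher and 1.14% lower. At 30 h 2 were higher and 2 lower, where 4.24% of all genes were higher and 4.39% lower. Of 11 other tubulin genes 3 averaged 5 CPM or more, and 0 of them was past 1.5-fold against control on that scale. Tuba4a was at 5.97, 7.92 and 3.78 CPM. On the log2(CPM + 1) scale it was -0.54 at 30 h against control and -0.90 at 30 h against 6 h. Tubg1, the nucleating gamma chain, was at 20.5, 19.0 and 15.2 CPM, and Tubd1 at 9.14, 8.13 and 7.49 CPM. All 21 genes for tubulin folding (prefoldin, the CCT chaperonin and tubulin cofactors) passed, and 0 was past 1.5-fold. Their median log2 ratio was 0.095 at 6 h and 0.13 at 30 h. The chaperonin genes Cct3 (84.3, 126 and 94.96 CPM) and Cct8 (90.6, 127 and 104 CPM) were highest at 6 h. The cofactor Tbcb was at 73.0, 91.4 and 104 CPM, Arl2 at 32.8, 29.2 and 41.7 CPM, Tbcd at 33.5, 29.6 and 25.98 CPM and Tbce at 32.4, 31.2 and 23.6 CPM.

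Of 19 tubulin modification genes 14 passed, with 1 higher and 1 lower at 30 h, where 4.24% of all genes were higher and 4.39% lower. Atat1, the alpha tubulin acetyltransferase, was at 7.62, 10.3 and 12.2 CPM, and Ttll7, a polyglutamylase of beta tubulin, at 175, 133 and 81.6 CPM, a log2 ratio of -1.09. Ttll5 was at 23.5, 18.5 and 16.2 CPM and Ttll12 at 5.38, 6.56 and 7.45 CPM. Of 13 destabilising and severing factors 8 passed, with 1 higher at 30 h, beside 4.24% of all genes. The higher gene was Stmn2, a stathmin that binds free tubulin dimers. It was at 334 CPM in control, 293 CPM at 6 h and 674 CPM at 30 h (log2 ratio 1.01). Kif2a was at 153, 168 and 113 CPM, Katna1 at 34.0, 43.4 and 30.1 CPM and Spast at 48.9, 47.1 and 37.6 CPM.

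Of 28 microtubule-associated protein genes 20 passed, with 0 higher and 1 lower at 30 h, beside 4.24% and 4.39% of all genes. The lower gene was the plus-end protein gene Clip1 (146, 107 and 81.8 CPM, log2 ratio -0.82). Clasp2 was at 112, 97.5 and 81.8 CPM, Mapre3 at 20.4, 15.96 and 15.4 CPM and Dclk2 at 9.24, 12.7 and 12.4 CPM. Of 25 motor genes 22 passed and 0 was past 1.5-fold. Kif13b was at 97.3, 83.7 and 67.6 CPM, Kif1b at 216, 194 and 157 CPM, Dync1i2 at 233, 231 and 306 CPM, Dynll1 at 728, 932 and 870 CPM and Dynlrb1 at 162, 163 and 195 CPM. Median log2 ratios of the modification, destabilising, associated-protein and motor lists at 30 h were -0.029, -0.11, -0.13 and 0.0045, beside -0.071 over all genes.

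The genes whose level followed Tubb2b most closely over 18 sums (6 classes by 3 libraries, LEC-like included, log2(CPM + 1)) were Tiam1 (Pearson r = 0.944), Kif26a (0.935), Wfdc1 (0.925), 9630028H03Rik (0.924), Tspan2 (0.920), 4930545L23Rik (0.910), Cxcl12 (0.909), Dgcr6 (0.901), Ntrk2 (0.900) and Ak3 (0.898). The sums share libraries and depth, and Ntrk2 helped to define a class, so these are descriptions. Tiam1, an activator of the GTPase Rac, was at 6.88, 8.003 and 21.1 CPM in all ECs, and Cxcl12, a chemokine gene, at 274, 293 and 968 CPM.

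Among the members only Tubb2a had a high likeness to Tubb2b (r = 0.772, place 159 of 10174), and Tubb6 was at r = -0.528. The genes most like the other members were Twf2, H3f3a and Tcim for Tubb2a, Flna, Actg1 and Cyba for Tubb5, Nras, Tbrg1 and Rac1 for Tubb4b and Sh3pxd2b, Hif1a and Marcksl1 for Tubb6. For Tuba1a they included Pop7 and Crlf2, and they were Actb, Med28 and Nme2 for Tuba1b and Rbm18, Ltb4r1 and Myd88 for Tuba1c. All these correlations were between 0.862 and 0.947.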

How the data were processed

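Single-cell RNA sequencing of sorted lung ECs gave 3 unfiltered UMI count matrices, 1 per group, deposited as made by the authors with Cell Ranger 7.2.0 per the file headers. The submitters' processing notes also name mm10 and Seurat 4.4.0, and whether intronic reads were counted is not given in the sources used here. Groups follow the treatment in the labels. The members and lists were chosen with earlier results of these data known.

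Barcodes were filtered by the study's limits on genes and mitochondrial UMIs. For each library and class, UMIs of all barcodes were added up and expressed as CPM. Sums carry exact Poisson, ratios exact conditional binomial and shares exact Clopper-Pearson intervals at 95%, for counting error only, and PCR copies are removed by UMIs. With 1 library per group no p-value was computed. A 0 allows up to 3 counts. Doublets were kept, and the highest Scrublet scores (scanpy 1.11.5) were removed in an alternative, 0.8% per 1000 barcodes. Only the ratio intervals and the 1.5-fold call were tested on simulated counts. Those were Poisson counts, which meet the intervals' own assumption. Named genes are all members, and in each wider list the 4 genes with the largest log2(CPM + 1) difference at 30 h and the 2 largest at 6 h, and the 10 genes most correlated with Tubb2b (3 for other members); genes named beyond this, such as those leading selected barcodes, were chosen after their values were seen. A few items that the rule names are not reported here. Classes used fixed marker lists with at least 5 (vein, LEC) or 10 UMIs of 3 or more markers. A barcode that passed more than 1 of the aCap, vein and artery gates was left out of classes, except that LEC took precedence. Barcodes were called gCap-like only if they passed none of these gates. The aCap-like, vein-like and artery-like classes can thus hold barcodes that also pass the gCap gate. Transcripts and positions are GENCODE M21 (32158 of 32285 genes matched), promoters RefSeq, and alignments used Biopython 1.88. Python 3.11.15, numpy 2.4.6 and scipy 1.17.1 were used.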

Additional observations from a re-analysis of the deposited data

Results flagged for a closer look

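Empty droplets, used above only as a background for Tubb2b and Tubb6, held RNA of some members above the control library's level, beyond counting error. The share of all genes for which this holds was not computed, so it is not a result about tubulins. The empty droplets held 876994 UMIs in control, 694224 at 6 h and 2637032 at 30 h. At 6 h the log2 ratio to control was 3.21 for Tubb6 (22 against 3 UMIs, interval 1.48 to 5.60), 0.79 for Tuba1a, 0.73 for Tuba1b, 0.51 for Tubb2a, 0.37 for Tubb4b and 0.31 for Tubb5. At 30 h it was 0.93 for Tuba1a, 0.87 for Tuba1b, 0.68 for Tubb2a and 0.24 for Tubb5. Tubb4b went the other way at 30 h (-0.29, interval -0.48 to -0.089). The intervals of Tubb2b and Tuba1c at both times and of Tubb6 at 30 h included 0, and Tubb3 had 0, 0 and 5 UMIs. Free RNA subtracted with this profile is among the alternatives below.

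Effects in opposite directions between classes were seen at 30 h against control, with counting intervals that excluded 0 on both sides, and the difference between classes was not tested. The log2 ratio of Tubb4b was 0.40 in artery-like, 0.17 in other gCap-like and 0.18 in Ntrk2/Slc6a6-positive gCap-like barcodes, but -0.37 in aCap-like and -0.48 in LEC-like barcodes. That of Tubb6 was 2.29 in artery-like (35 against 5 UMIs) and 0.87 in other gCap-like barcodes, but -1.02 in Ntrk2/Slc6a6-positive gCap-like barcodes. Under the stricter gate the latter was -0.89 (interval -1.97 to 0.18). Artery-like barcodes then had 9 Tubb6 UMIs at 30 h and 0 in control. That interval, from -0.066 with no upper limit, also included 0.
Barcodes can cross the Ntrk2/Slc6a6 limit between libraries, since both genes were higher at 30 h.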

How the results depend on the processing

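The log2 ratios over all ECs were recomputed under 11 alternatives, and these kept the sign of the reported value for the 8 members with a mean of at least 5 CPM. Tubb2b ranged from 1.59 to 1.82 at 30 h and from 0.34 to 0.52 at 6 h, with the lowest values (1.59 and 0.34) after thinning to 2000 UMIs. Tubb6 ranged from 2.25 to 2.62 and Tuba1c from 1.39 to 2.31 at 6 h, both lowest with barcodes of at least 300 genes and no upper limit. With a fold of 2, members higher at 30 h than control were 2 in place of 5, and with median-of-ratios size factors members higher at 30 h than at 6 h were 2 in place of 1. Tubb3 reversed to -0.79 (30 h against control) and -0.88 (30 h against 6 h) with free RNA subtracted and to -0.56 (30 h against 6 h) after thinning. At 6 h against control, where it was 0.057, it was -0.23 with the mean of single-barcode CPM, -0.32 without doublets and -0.67 without barcodes with RNA of other types. The cause was not tested, and its counts are at most 16. With a fold of 2, 0.373% and 0.108% of all genes were higher and lower at 6 h, 0.806% and 0.885% at 30 h against control and 1.0% and 1.25% at 30 h against 6 h. Over all genes with at least 1 UMI the 1.5-fold shares were 1.18%, 0.722%, 2.86%, 2.48%, 3.13% and 2.73% in the same order. Class levels were recomputed with a stricter gate and without barcodes that carry RNA of other types, and class ratios only with the stricter gate for Tubb2b, Tubb6 and Tuba1c in artery-like and gCap-like barcodes. The barcodes with Csf2, Fosl1 and Myc, and their repeat without RNA of other types, were chosen after seeing the data, as were the class ratios under the stricter gate. No paired analysis was possible because each group has 1 library.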
